A study of Homo sapiens with 6 samples.

Results

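The 10 genes described here handle iron in the cell. They were taken by symbol from the table of 20348 genes, and each symbol matched 1 row. *FTH1* and *FTL* encode the heavy and light chains of ferritin, which stores iron. *TFRC* encodes the transferrin receptor, which takes iron up, and *SLC11A1* and *SLC11A2* encode metal transporters of phagosomes and endosomes. *SLC40A1* encodes ferroportin, the iron exporter, *HMOX1* encodes heme oxygenase 1, and *NCOA4* encodes the receptor that brings ferritin to autophagosomes. *ACO1* and *IREB2* encode the iron regulatory proteins IRP1 and IRP2.

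RNA-seq was made from MV4-11, an established human AML cell line with a KMT2A fusion and an internal tandem duplication of FLT3. The 3 control samples were a blank control, for which the paper names no solvent. The 3 WNK463 samples received 1 μM of WNK463, which inhibits WNK kinases, and both groups were collected at 48 h. All 6 samples come from a single cell line at a single dose and time point. The labels do not say whether the samples were separate cultures, so the p-values measure the spread between these samples. The comparison asks which iron genes differ in level after WNK inhibition.

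A cell adjusts its iron supply largely after transcription. When iron is scarce, IRP1 and IRP2 bind a short RNA hairpin, the iron-responsive element. A hairpin before the coding sequence of ferritin or ferroportin then blocks translation, and hairpins behind the coding sequence of the transferrin receptor protect the transcript from decay. Ferritin and heme oxygenase 1 are also controlled at transcription, among others by NRF2 and BACH1. Myeloid cells recover much iron from heme and from engulfed material.

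The hairpins are shown because they are a sequence that some of these members share, and RNA-seq reads only the transcript level and not translation. GENCODE 29 coding transcripts on GRCh38 were searched for a bulged C, a stem of 5 bases, the loop CAGTGN and the 5 bases that close the stem, with G-T pairs allowed. With 5 of 5 pairs required, the hairpin was found in 4 of the 10 members, *FTH1*, *FTL*, *SLC40A1* and *TFRC*, and in 291 of 19669 genes with coding transcripts (1.48%). With 4 or 5 pairs it was found in 7 members and in 2200 genes (11.2%), so the looser form is common. Each line gives 27 bases from 5′ to 3′ as DNA letters, with the loop in capitals.
FTH1: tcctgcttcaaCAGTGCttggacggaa
FTL: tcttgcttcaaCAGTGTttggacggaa
SLC40A1: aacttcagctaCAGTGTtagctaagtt
TFRC hairpin 1: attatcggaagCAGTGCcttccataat
TFRC hairpin 2: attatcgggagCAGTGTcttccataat
TFRC hairpin 3: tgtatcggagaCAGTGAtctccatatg
TFRC hairpin 4: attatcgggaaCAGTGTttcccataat
SLC11A2, 4 of 5 pairs: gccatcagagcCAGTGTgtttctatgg

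The ferritin hairpins were identical at 25 of 27 bases. The *FTH1* hairpin lies at chr11:61967575-61967601 on the minus strand, in exon 1 and the 5′ UTR, and was present in 7 of 8 coding transcripts. The *FTL* hairpin lies at chr19:48965336-48965362 on the plus strand, also in exon 1 and the 5′ UTR. The *SLC40A1* hairpin lies in the 5′ UTR at chr2:189580662-189580688 on the minus strand, and 1 of 5 coding transcripts carried it. The 4 *TFRC* hairpins that matched lie in the 3′ UTR within exon 19, between chr3:196050464-196050490 and chr3:196050980-196051006 on the minus strand. The search cannot find an element with another loop or stem. Any pair of the 4 *TFRC* hairpins shared 17 to 25 of 27 bases. The *SLC11A2* hairpin begins 37 bases past the coding end, at chr12:50988270-50988296 on the minus strand, and was found in 5 of 18 coding transcripts. The deposited values are summed per gene, so transcripts with and without it were not told apart. The looser form also matched 3′ UTR sequence of *ACO1* and *IREB2*.

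**Figure D1:**
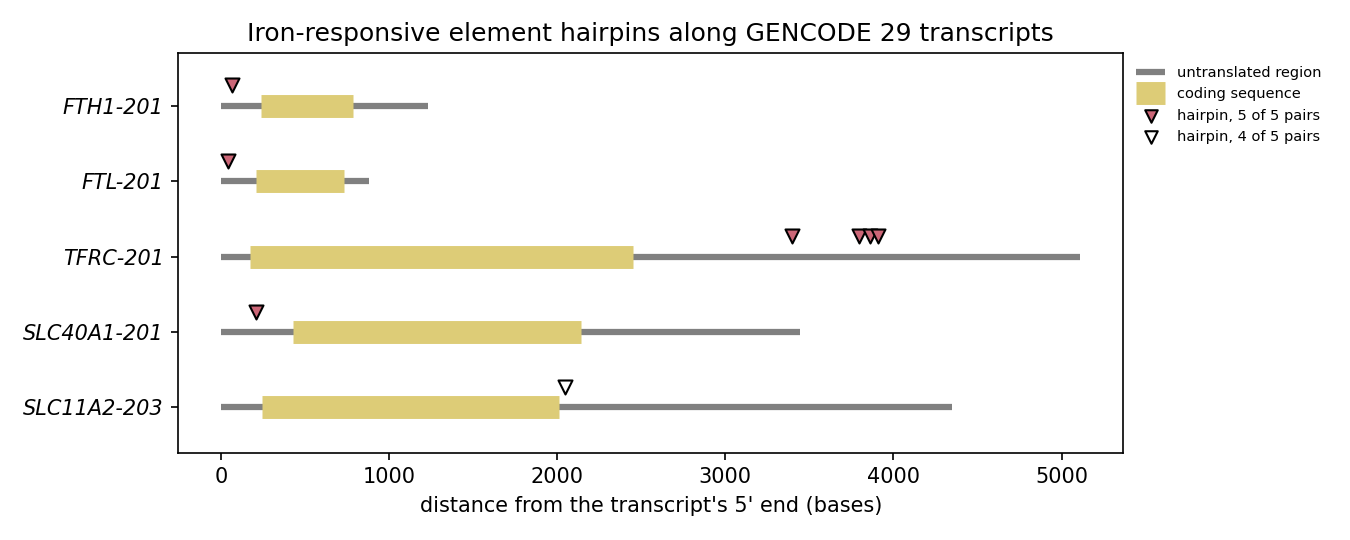
Position of the hairpins along 1 GENCODE 29 transcript for each of 5 genes, in bases from the 5′ end. Grey lines are untranslated regions, yellow boxes are coding sequence, filled triangles are hairpins with 5 of 5 pairs and the open triangle has 4 of 5. The hairpin stands before the coding sequence in *FTH1*, *FTL* and *SLC40A1* and behind it in *TFRC* and *SLC11A2*.

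The total counts ranged from 14915745 to 17411780 per sample, and 11973 genes passed edgeR's filter on low counts. Values after ± are SDs over the 3 samples of a group (n = 3). Levels of different genes are compared as TPM, which corrects for transcript length and sums to 1000000 per sample. Changes are tested on counts with edgeR's quasi-likelihood test and given as CPM, the counts per 1000000 of the TMM-scaled library. A gene was called at an adjusted p below 0.05, with Benjamini-Hochberg adjustment over all genes tested. TMM factors were 0.944 to 0.951 in control and 1.05 to 1.06 with WNK463, and with total counts as the scale the median change of all genes was 0.15 higher in log2. The summed level of 7 blast markers was 1029 to 1061 CPM in control and 1344 to 1370 CPM with WNK463, with *CD4*, *PTPRC*, *HOXA9* and *MEIS1* called higher and *MPO*, *CD33* and *FLT3* lower under TMM. *MPO* fell from 7.47 ± 0.423 to 1.31 ± 0.479 CPM, the largest log2 fold change of the 7 at -2.50. Of 8 erythroid markers, 7 stayed below 1 CPM in each sample, and *HBB* and *ALAS2* were at 0 in all samples. Also below 1 CPM in each sample were 6 of 6 lymphocyte markers and 4 of 6 epithelial or fibroblast markers, *KRT8* and *KRT18* being the exceptions.

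All 10 members were tested. With WNK463, 5 members were higher, 1 was lower and 4 were not called, against a background in which 70.8% of all tested genes were called, 35.5% higher and 35.3% lower. The higher members were *SLC11A1*, *HMOX1*, *FTH1*, *NCOA4* and *SLC11A2*, and the lower member was *SLC40A1*. When a log2 change of 1 or more in size was also required, 3 members were called, all higher, beside 15.2% of all genes in either direction and 9.62% higher. The groups did not overlap in 6 members, beside 73.5% of all genes. The median log2 fold change of the members was 0.22 and that of all genes 0.02. With scaling by total counts, 9 members were higher and 0 lower, beside 5525 higher and 3123 lower of all 11973 genes. *FTL*, *TFRC*, *ACO1* and *IREB2* then passed with log2 fold changes between 0.16 and 0.23, close to the shift of all genes.

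**Figure D2:**
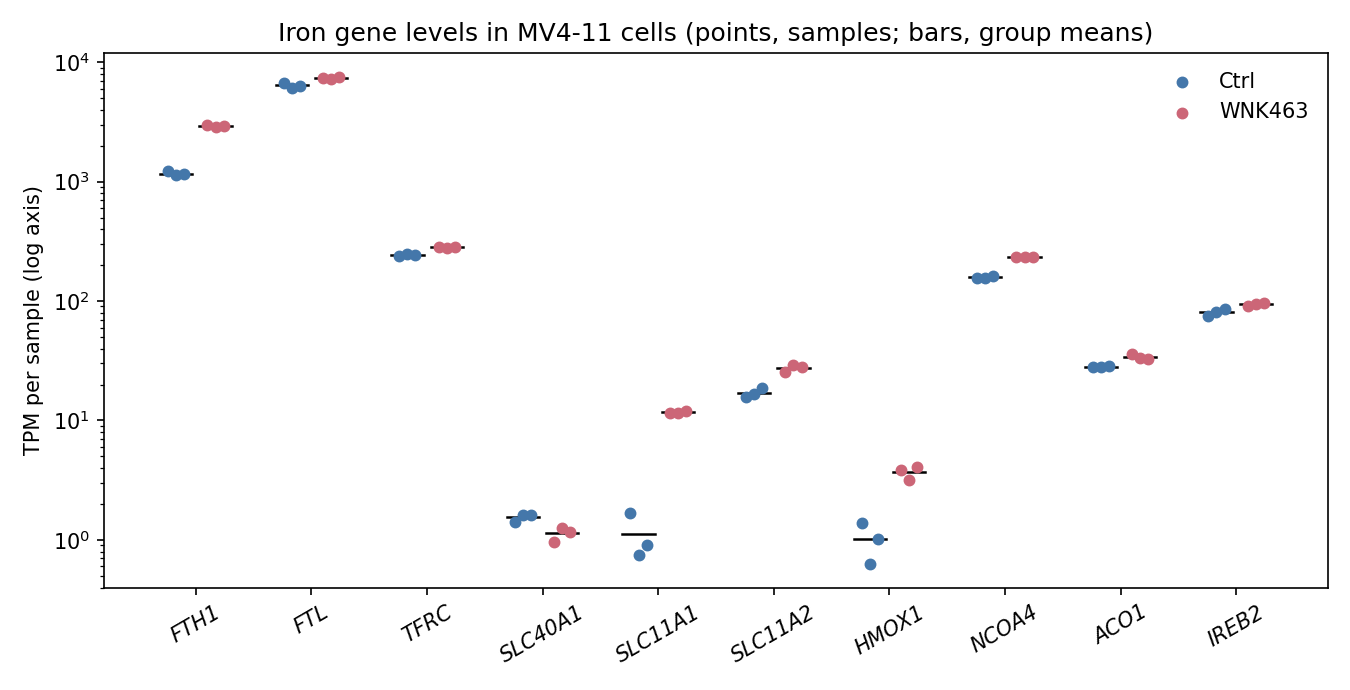
TPM of the 10 genes in each of the 6 samples, on a log axis, with control in blue, WNK463 in red and bars at the group means. *FTL* and *FTH1* stand highest, and *SLC40A1*, *SLC11A1* and *HMOX1* lie near 1 TPM in control.

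Iron storage dominated the levels. *FTL* (ENSG00000087086, chr19:48965301-48966878) was at 6741, 6113 and 6308 TPM in the control samples, rank 11 of all genes by mean. With WNK463 it was at 7328, 7234 and 7454 TPM. On the TMM scale its groups overlapped, with 2997 ± 184 CPM in control and 3010 ± 66.1 CPM with WNK463. Its log2 fold change of 0.01 had a 95% interval from -0.10 to 0.11 (edgeR adjusted p = 0.91). The sign of this small value turned under several settings.

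*FTH1* (ENSG00000167996, chr11:61959718-61967660) encodes the chain that oxidizes iron for storage. It was at 1216, 1138 and 1149 TPM in control and at 3001, 2878 and 2915 TPM with WNK463, so each treated sample was above each control sample. In CPM it rose from 585 ± 34.5 to 1230 ± 36.3. This is a log2 fold change of 1.07 (standard error 0.05, edgeR adjusted p = 2.5e-12), or 2.10-fold. It ranked 121 by mean TPM in control and 37 with WNK463. Among all tested genes, 8.74% had a higher log2 fold change.

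The ferritin chains changed by different amounts. The ratio of *FTH1* to *FTL* in TPM was 0.180, 0.186 and 0.182 in control and 0.410, 0.398 and 0.391 with WNK463. The mean ratio rose 2.18-fold and the groups did not overlap (p = 0.10 by a two-sided exact permutation, which cannot give less with 3 against 3). A ratio within a sample does not depend on the scaling between libraries, and shows an unequal change of the chains. The sum of both chains was 0.756% ± 0.0363 of all TPM in control and 1.03% ± 0.0138 with WNK463 (exact permutation p = 0.10). Both transcripts carry nearly the same hairpin in the 5′ UTR, and under TMM only *FTH1* was called. GENCODE 29 lists 25 processed copies named *FTH1P* and 16 named *FTLP*, and 0 of them have a row in the table, so how reads shared with these copies were counted could affect both levels. *BEST1* overlaps *FTH1* on the opposite strand. It had 4.05 ± 0.576 CPM in control and 3.39 ± 0.684 CPM with WNK463, far below *FTH1*.

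**Figure D3:**
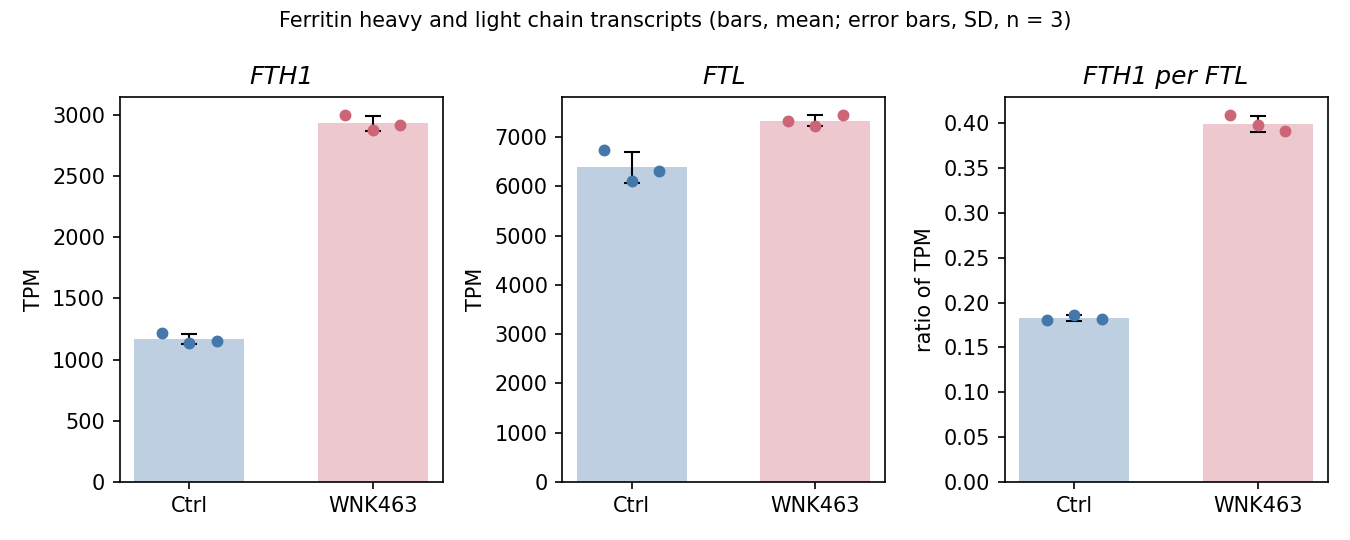
TPM of *FTH1*, TPM of *FTL* and their ratio in control and WNK463 samples, with points for samples, bars for means and error bars for SD (n = 3). *FTH1* and the ratio separate the groups widely, from 0.183 to 0.399 in the mean ratio, while *FTL* in TPM moves by 1.15-fold.

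The transferrin receptor transcript was not called under TMM. *TFRC* (ENSG00000072274, chr3:196027183-196082189) was at 240, 247 and 244 TPM in control and 286, 280 and 283 TPM with WNK463. In TMM-scaled CPM the groups overlapped, with 656 ± 2.75 in control and 663 ± 10.9 with WNK463. Its log2 fold change was 0.02, with a 95% interval from -0.07 to 0.10 (edgeR adjusted p = 0.75). With total counts, which like TPM apply no TMM factor, the log2 fold change was 0.17 beside a median of 0.17 over all genes. *TFRC* was the third most abundant member.

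*SLC11A1* (ENSG00000018280, chr2:218382029-218396894), known as NRAMP1, moves metal ions out of the phagosome of macrophages and neutrophils. Its counts were 22, 19 and 16 in control and 179, 162 and 138 with WNK463. In CPM it rose from 1.21 ± 0.200 to 9.68 ± 1.03, and the lowest treated sample was well above the highest control. Its log2 fold change of 3.00 (standard error 0.20, edgeR adjusted p = 3.8e-10) had rank 120 of the 11973 tested genes. In TPM the control samples spread more, at 1.67, 0.754 and 0.914, against 11.6, 11.5 and 11.96 with WNK463. The summed level of 10 monocyte and macrophage markers was 235 to 259 CPM in control and 292 to 324 CPM with WNK463. Most of this rise came from *CSF1R*, at 58.6 ± 4.78 CPM in control and 114 ± 10.3 CPM with WNK463. *CSF1R*, *ITGAM*, *C1QA* and *APOE* were called higher, as were 35.5% of all tested genes. *APOE* went from at most 0.137 CPM in control to at most 1.05 CPM with WNK463. *C1QA* had 24, 4 and 20 counts in control, and the sample with 4 was below the filter on low counts. *C1QA* and *APOE* were thus tested only through their WNK463 level. *CD68*, the most abundant of the 10, was called lower, at 179 ± 7.87 CPM in control and 162 ± 8.90 CPM with WNK463, a log2 fold change of -0.14 that is no larger than the scaling shift. *MARCO* was not called (-0.27, edgeR adjusted p = 0.49), and *CD14*, *CD163*, *MRC1* and *FCGR3A* stayed below 1 CPM in each sample. Their part in the rise of *SLC11A1* was not tested. In bulk RNA, more cells with a transcript and more transcript per cell cannot be told apart.

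*SLC11A2* (ENSG00000110911, chr12:50979401-51028566), known as DMT1, moves ferrous iron from the endosome into the cytosol after uptake by the transferrin receptor. It was at 15.8, 16.7 and 18.7 TPM in control and 25.5, 29.3 and 28.0 TPM with WNK463. In CPM it rose from 28.2 ± 1.13 to 36.1 ± 0.798 and the groups did not overlap. In log2 the difference was 0.36 (standard error 0.07, edgeR adjusted p = 0.00023), so the rise was 1.28-fold on this scale and 1.62-fold in mean TPM. In control *SLC11A2* had 9.48 to 22.2 times the TPM of *SLC11A1*, and with WNK463 2.20 to 2.55 times, so *SLC11A2* stayed the more abundant paralog in each sample.

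*SLC40A1* (ENSG00000138449, chr2:189560579-189583758) encodes the exporter and was near the bottom of the members. It had 42, 39 and 47 counts in control and 25, 34 and 29 with WNK463, so the groups did not overlap but rested on few reads. In CPM it was at 2.70 ± 0.156 in control and 1.78 ± 0.242 with WNK463. This log2 fold change of -0.60 had a 95% interval from -1.13 to -0.07 (edgeR adjusted p = 0.043). This call was lost in 12 of 15 alternatives, among them DESeq2 (adjusted p = 0.12), total counts (adjusted p = 0.12) and the fits that left out control replicate 1, 2 or 3 or WNK463 replicate 1 or 3 (adjusted p from 0.066 to 0.13). The value stayed negative in each of them.

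*HMOX1* (ENSG00000100292, chr22:35380361-35394214) breaks heme into iron, biliverdin and carbon monoxide. It had 17, 6 and 14 counts in control and 47, 37 and 45 with WNK463. In CPM it rose from 0.767 ± 0.321 to 2.62 ± 0.407, and each treated sample was above each control sample. On the log2 scale it was higher by 1.74 (standard error 0.34, edgeR adjusted p = 0.00017), a 3.34-fold rise with a 95% interval from 1.03 to 2.45 in log2. The gene reached the filter on low counts in 3 WNK463 samples and 2 control samples, so it was tested only because of its level with WNK463. Even so it stayed at 3.73 ± 0.467 TPM, rank 10119 of all genes, while the constitutive enzyme *HMOX2*, named after its values were seen, fell from 66.4 ± 3.80 to 51.4 ± 1.12 CPM.

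*NCOA4* (ENSG00000266412, chr10:46005088-46030714) delivers ferritin to the lysosome, where its iron is set free. It was at 157, 157 and 161 TPM in control and at 236, 232 and 236 TPM with WNK463. In CPM it rose from 294 ± 3.85 to 381 ± 5.15, a difference much larger than the spread. edgeR gave a log2 fold change of 0.38 (standard error 0.04, edgeR adjusted p = 4.1e-07). The rise was 1.48-fold in mean TPM, beside 2.51-fold for *FTH1*.

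The iron sensors were not called on the TMM scale. *IREB2* (ENSG00000136381, chr15:78437431-78501456) was at 236 ± 8.43 CPM in control and 245 ± 5.36 CPM with WNK463, and *ACO1* (ENSG00000122729, chr9:32384603-32454769) at 56.7 ± 0.609 and 59.8 ± 3.69 CPM. The groups overlapped for both genes. For *IREB2* the log2 fold change was 0.05, with a 95% interval from -0.05 to 0.15 (edgeR adjusted p = 0.32). For *ACO1* it was 0.08, with an interval from -0.05 to 0.21 (edgeR adjusted p = 0.28). In TPM *IREB2* had 2.85 ± 0.168 times the level of *ACO1* in control and 2.78 ± 0.224 times with WNK463 (exact two-sided permutation p = 0.60).

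In order of mean TPM in control, the members ran *FTL*, *FTH1*, *TFRC*, *NCOA4*, *IREB2*, *ACO1*, *SLC11A2*, *SLC40A1*, *SLC11A1* and *HMOX1*. The last 3 had means between 1.02 and 1.55 TPM. There the samples of *SLC11A1* overlapped those of both others, and the highest *HMOX1* sample, at 1.39, was just under the lowest *SLC40A1* sample, at 1.41. With WNK463, *SLC11A1* and *HMOX1* stood above *SLC40A1* without overlap, at 11.7 ± 0.261, 3.73 ± 0.467 and 1.14 ± 0.157 TPM. The upper members kept their order.

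**Figure D4:**
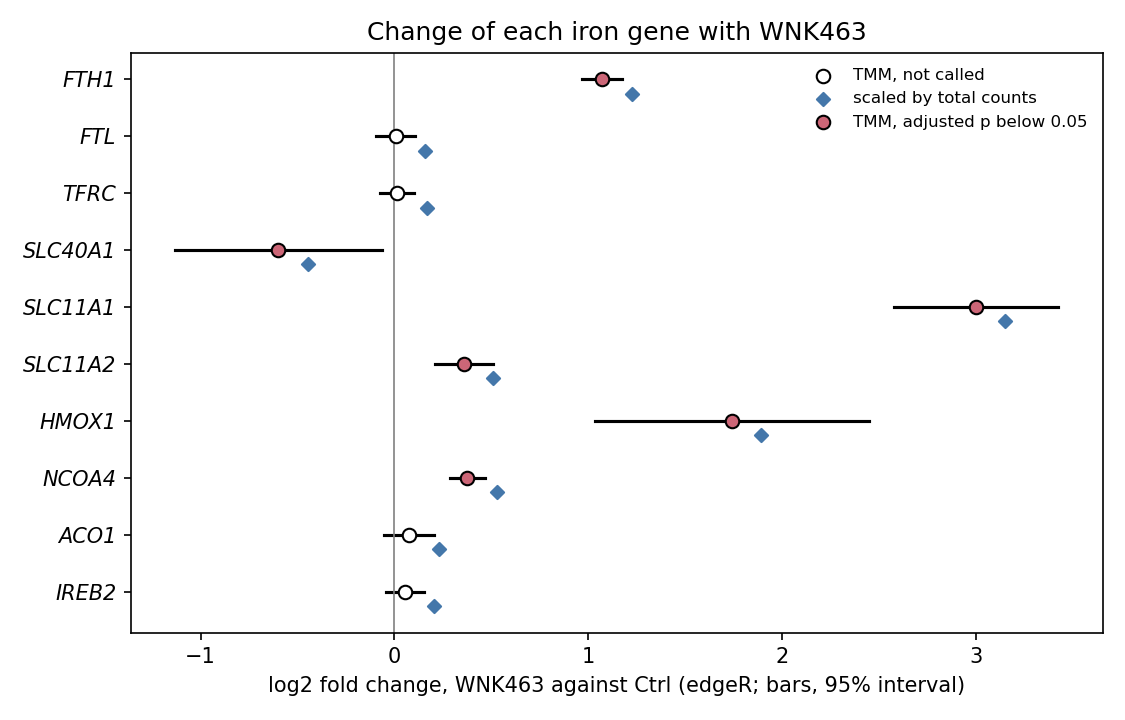
Log2 fold change of each gene with its 95% interval from edgeR under TMM scaling (circles, filled where the adjusted p is below 0.05) and the value under total counts (diamonds). *SLC11A1*, *HMOX1* and *FTH1* lie at or above 1.07, and the diamonds sit about 0.15 to the right of the circles.

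Promoter windows of 300 bases (250 before to 50 after the start, RefSeq, GRCh38.p14) were matched for 8 of the 10 members, not for *FTH1* and *HMOX1*. The antioxidant response element TGACNNNGC, searched on both strands, was in 0 of these 8 windows and in 13.3% of 35116 windows, which describes these letters in these windows only. For each member only the first window listed was searched, while the 35116 windows include every window of each gene.

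A further 103 genes of iron and heme handling, in 8 lists, give the surroundings of the members. Of these 86 were tested, of which 32 were higher, 28 lower and 26 not called. The share called, 69.8%, was near the 70.8% of all genes. With total counts the split was 47 higher and 20 lower, beside 5525 higher and 3123 lower of all 11973 genes. For the 28 genes chosen from these lists by the naming rule, the direction was the same under TMM, total counts and TPM wherever the gene was tested. The rule required a log2 change of 0.5 or more in size under TMM. Total counts moved the median of all genes by 0.15, so this agreement was largely set by the choice.

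**Figure D5:**
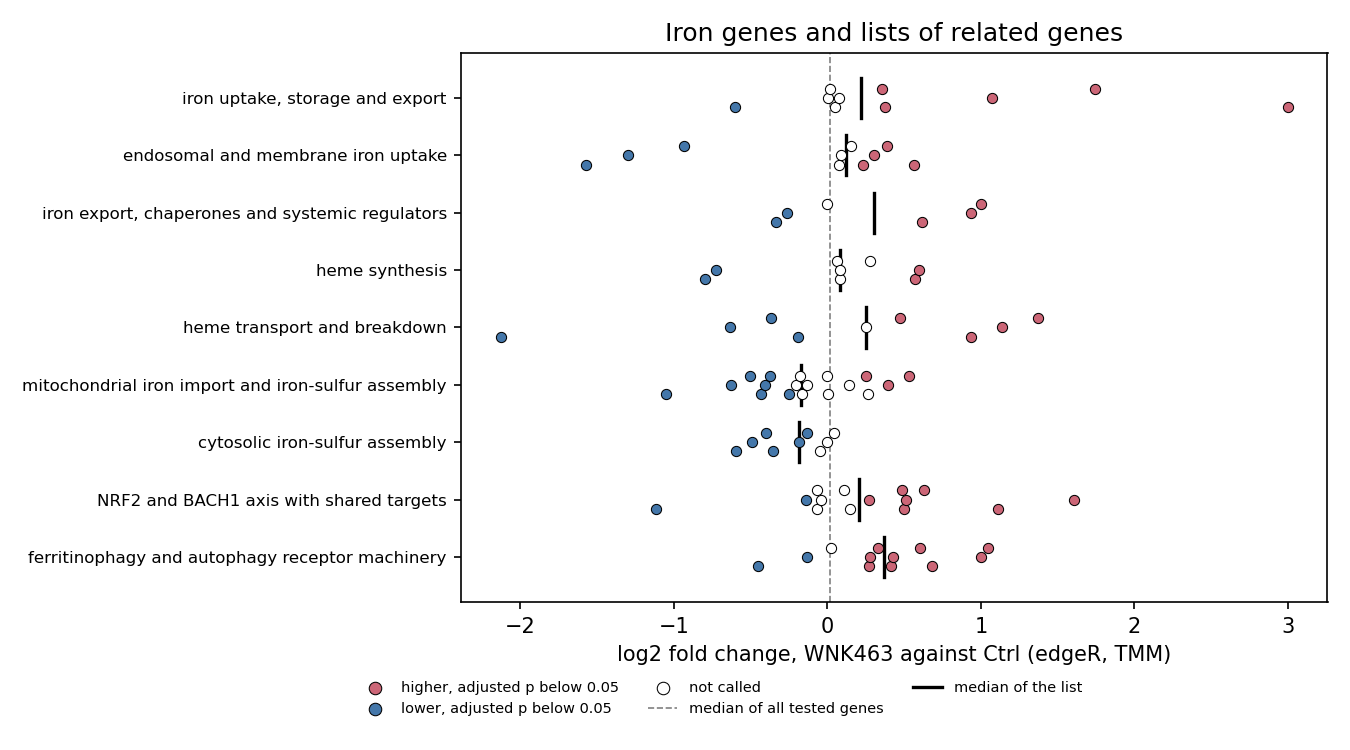
Log2 fold changes (edgeR, TMM) of the 10 members and of the tested genes in 8 lists, one row per list, coloured by call, with a black bar at each median and a dashed line at the median of all genes. The medians run from -0.18 and -0.17 in the lists of iron-sulfur assembly to 0.31 in that of export, chaperones and regulators and 0.37 in that of autophagy.

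Among genes of endosomal and membrane uptake, 4 of 10 tested were higher and 3 lower (median log2 fold change 0.12) under TMM. Over all genes 35.5% were higher and 35.3% lower. With total counts 7 were higher and 3 lower, beside 5525 and 3123 of all 11973 genes. *STEAP3*, the endosomal reductase that prepares iron for *SLC11A2*, fell from 42.3 ± 4.82 to 14.3 ± 1.07 CPM (log2 fold change -1.57, edgeR adjusted p = 9.6e-11). *SLC39A14*, which imports iron not bound to transferrin, fell from 118.6 ± 2.37 to 62.0 ± 5.71 CPM. *LRP1*, a receptor for the heme carrier hemopexin, had a log2 fold change of -1.30 (adjusted p = 7.6e-08), but -0.29 with limma on log2(TPM + 1), where it was not called (adjusted p = 0.33). *TF*, which encodes transferrin, was higher at 7.71 ± 1.45 CPM against 5.24 ± 0.611. *TFRC* itself was not called.

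In the list of export, chaperones and regulators, 3 of 6 tested genes were higher and 2 lower (median 0.31), beside 35.5% and 35.3% of all genes. The median was 0.46 with total counts and 0.18 with limma on log2(TPM + 1), beside 0.17 and 0.16 over all genes. *FBXL5* encodes the iron-binding ubiquitin ligase subunit that marks IRP2 for degradation. It rose from 48.6 ± 2.07 to 97.0 ± 1.70 CPM, which is 1.00 in log2 (standard error 0.06, edgeR adjusted p = 4.6e-11), while *IREB2* itself was not called. *EPAS1*, the hypoxia factor HIF-2 alpha, had a log2 fold change of 0.62, and the ferroxidase gene *HEPH* one of 0.94 at 1.55 CPM with WNK463. *PCBP1*, a chaperone that loads ferritin with iron, fell from 446 ± 13.8 to 354 ± 8.69 CPM, and *PCBP2* was not called at 525 and 523 CPM. *PCBP1* and *PCBP2* were named after their values were seen.

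Genes of heme synthesis moved both ways, with 2 of 8 tested higher, 2 lower and a median of 0.09 under TMM. Of all genes 35.5% were higher and 35.3% lower. With total counts 6 were higher and 2 lower, beside 5525 and 3123 of all 11973 genes. With limma on log2(TPM + 1) 5 were higher and 2 lower, beside 4902 and 2643 of 11315 genes. *ALAS1*, the first enzyme of the pathway, rose from 90.5 ± 4.55 to 134.7 ± 6.23 CPM, and *CPOX* had a log2 fold change of 0.60. *UROS*, an enzyme of a middle step, fell with a log2 fold change of -0.73. In heme transport and breakdown, 4 of 9 were higher and 4 lower under TMM, beside 35.5% and 35.3% of all genes. With total counts 5 were higher and 3 lower. *BLVRB*, a biliverdin reductase, rose from 29.7 ± 1.95 to 56.9 ± 3.12 CPM. *BLVRA*, the other reductase, was lower but near the detection limit, with 13, 10 and 16 counts in control and 5, 2 and 2 with WNK463, and it reached the filter on low counts only in control, so its call rests on that group. *FLVCR2* rose from 8.97 ± 0.420 to 19.7 ± 1.93 CPM and *ABCB6* from 0.866 ± 0.0642 to 2.26 ± 0.793 CPM, while the mitochondrial transporter *ABCB10* fell from 166 ± 11.8 to 107 ± 4.10 CPM.

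Of the mitochondrial genes of iron-sulfur cluster assembly 3 of 18 tested were higher and 7 lower under TMM, and of the cytosolic genes 0 of 9 were higher and 6 lower, beside 35.5% of all genes higher and 35.3% lower. With total counts these counts were 6 higher and 5 lower, and 1 higher and 4 lower, beside 5525 and 3123 of all 11973 genes. With limma on log2(TPM + 1) they were 6 higher and 5 lower, and 2 higher and 3 lower, beside 4902 and 2643 of 11315 genes. There the cytosolic median went from -0.18 to 0.06, and that of all genes from 0.02 to 0.16. The counts of both lists thus depended on the scaling, while the medians of both stayed below that of all genes under TMM, total counts and limma. *BOLA3* fell from 13.1 ± 1.06 to 6.32 ± 1.24 CPM and *HSPA9*, the chaperone of the pathway, fell from 616 ± 17.6 to 434 ± 4.33 CPM. The scaffold gene *ISCU* rose from 28.2 ± 2.53 to 40.8 ± 3.05 CPM. In the cytosolic list *NDOR1*, which passes electrons to the assembly factor *CIAPIN1*, fell from 59.5 ± 5.49 to 39.3 ± 0.902 CPM.

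In the list of NRF2, BACH1 and targets that *HMOX1* and ferritin share with them, 7 of 14 tested genes were higher and 2 lower (median 0.21). Over all genes 35.5% were higher and 35.3% lower. *NFE2L2*, which encodes NRF2, rose from 137 ± 18.1 to 211 ± 5.82 CPM. Its targets did not move together. *SLC7A11*, the cystine importer, rose from 5.62 ± 0.309 to 17.1 ± 1.33 CPM, and *GCLC*, which makes a glutathione precursor, had a log2 fold change of 1.11. *SRXN1* fell from 31.2 ± 1.81 to 14.4 ± 1.94 CPM, and *NQO1*, named after its value was seen, was not called with a log2 fold change of -0.04. *BACH1*, the repressor of *HMOX1*, was itself higher, with a log2 fold change of 0.50 (edgeR adjusted p = 4.9e-06), and was also named after its value was seen. In TPM the *BACH1* groups overlapped, at 27.8, 15.9 and 18.4 in control and 27.3, 22.6 and 28.1 with WNK463.

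Autophagy genes around *NCOA4* were higher in 9 of 12 cases and lower in 2 (median 0.37), beside 35.5% and 35.3% of all genes. *SQSTM1*, which encodes the cargo receptor p62, rose from 154 ± 6.59 to 309 ± 9.68 CPM (log2 fold change 1.00, edgeR adjusted p = 6.6e-12). *ATG9A* and *RB1CC1*, needed to form autophagosomes around ferritin, had log2 fold changes of 0.60 and 0.68. *TAX1BP1*, a partner of *NCOA4*, rose from 140 ± 21.6 to 187 ± 7.67 CPM. *ATG7*, named after its values were seen like *TAX1BP1*, fell from 55.2 ± 3.68 to 40.4 ± 2.83 CPM. The other lower gene, *HERC2*, also named after its values were seen, was not among the lower genes with total counts. There 10 of the 12 were higher and 1 lower, beside 5525 and 3123 of all 11973 genes.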

How the data were processed

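The authors deposited estimated counts, whole and not normalized, and TPM values for each gene and sample. The labels name GRCh38 and fastp, Bowtie2, HISAT2, StringTie, RSEM, DESeq2 and edgeR, without roles or versions. The deposited log2 fold change, p-value, adjusted p-value and mean TPM columns were not used. Groups come from the sample titles. Counts were tested with edgeR 4.0.16 in R 4.3.3 (TMM factors, default filter, quasi-likelihood test, no replicate block) and summarised with 3 samples per group. Standard errors were derived from the F statistic. Precision depended on the count of a gene and on the spread between samples, and intervals cover that spread. In simulated data with 200 of 11873 genes changed, the procedure recovered 195 of them and called 18 unchanged genes. Far fewer genes changed there than were called here, so the simulation does not test the scaling.

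Alternatives were DESeq2 1.42.0, other scalings and filters, limma 3.58.1 on TPM, the replicate block and each sample left out. The members and lists were chosen with earlier results of these data known. The genes named by rule are the members, the markers and, per list and direction, up to 3 called genes with the smallest p, a log2 change of 0.5 or more in size and groups that do not overlap. *HMOX2*, *PCBP1*, *PCBP2*, *NQO1*, *BACH1*, *TAX1BP1*, *ATG7* and *HERC2* fall outside this rule and were named after their values were seen. Some genes that this rule names are not reported here. Figures were drawn with matplotlib 3.10.9.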

Additional observations from a re-analysis of the deposited data

How the results depend on the processing

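*FTH1*, *SLC11A1*, *SLC11A2*, *HMOX1* and *NCOA4* stayed called as higher under each alternative run, with log2 fold changes of 1.03 to 1.33, 2.61 to 3.35, 0.31 to 0.69, 1.24 to 2.01 and 0.35 to 0.57. *HMOX1* was not tested where at least 10 counts were required in every sample. *SLC40A1* did not pass with DESeq2 (-0.61), total counts (-0.45), no filter (-0.61), the replicate block (-0.60), or limma on TPM (-0.26 with a pseudocount of 1, filtered or not, and -0.42 with 0.1), and it ranged from -0.69 to -0.50 with a sample left out. *FTL* was -0.0042 with DESeq2 and -0.0087 without the filter, and ranged from -0.041 to 0.050 with a sample left out. It was -0.041 without control replicate 2, -0.02 without control replicate 3 and -0.01 without WNK463 replicate 3. *FTL*, *TFRC*, *ACO1* and *IREB2* passed with total counts (0.16, 0.17, 0.23 and 0.20) and with limma on TPM (0.20, 0.21, 0.25 and 0.22 with a pseudocount of 1, filtered or not, and 0.20, 0.22, 0.26 and 0.23 with 0.1). Members called higher were then 9, beside 5525 of all genes with total counts and 4880 to 5343 with limma on TPM. With a log2 fold change of at least 1 required, 3 members were called higher. Members called lower were 0 with DESeq2, total counts, no filter, the replicate block, the limma fits and the fold limit, and 0 to 1 with a sample left out. With a sample left out, 5 members were higher in each fit. With limma on TPM, the list genes called lower were 17, or 18 without a filter, in place of 28. The summed ferritin ranged from 0.20 to 0.44 in log2 and the ratio of *FTH1* to *FTL* from 2.09-fold to 2.21-fold. Same-numbered samples did not deviate together (correlations 0.02, -0.01 and -0.05), so the replicate number was not taken to pair them, and the block changed no other call of a member. *SLC40A1*, *HMOX1* and *SLC11A1* had under 50 counts per control sample, which limits their precision.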
